A study of Mus musculus with 4 samples.

Results

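The AP-1 and EGR immediate-early factors considered here are 10 genes, Fos, Fosb, Fosl1, Fosl2, Jun, Junb, Jund, Egr1, Egr2 and Atf3, taken by gene name from a table of 54532 mouse genes. All 10 were found. The cells were labelled as mouse primary lung fibroblasts, and the genotype labels gave 2 Calu-WT libraries (WT below) and 2 Calu-KO libraries, in which calumenin, a calcium-binding protein of the secretory pathway, was targeted. The titles of the WT libraries carry the letters NC, and those of the Calu-KO libraries carry KD. How the gene was targeted, the strain, sex and age of the mice, any treatment, and whether replicates are separate animals or cultures were not given in the sources used here. All p-values therefore reflect the spread between these libraries alone, and that spread may be technical. Values are FPKM, fragments scaled to gene length and to a size set for each library, so levels may be compared between genes of a library.

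AP-1 is a family of dimeric transcription factors. A Fos-type protein (Fos, Fosb, Fosl1 or Fosl2) pairs through its leucine zipper with a Jun-type protein (Jun, Junb or Jund), and Jun-type proteins also pair with each other. The pairs bind the site TGANTCA. Atf3 is a related leucine zipper protein induced by stress, and Egr1 and Egr2 are zinc finger factors that bind GC-rich sites. In fibroblasts, serum and growth factors switch many of these genes on within minutes through MAP kinases and the serum response factor SRF, which binds the CArG box. Fos and Egr1 transcripts then decay quickly, Fosl1 is induced later, and Jund is usually the steady member.

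Promoter sequences from RefSeq (GRCm38.p6, the mm10 assembly) matched 8 of the 10 members. Fosl1 and Egr1 had no entry, so their promoters were not searched. The 250 bases before each listed start were searched on both strands for TGANTCA (AP-1), TGACGTCA (the cAMP response element, CRE), GCGNGGGCG (EGR), the CArG box, GGGCGG (GC box) and TATAAA. An EGR match can overlap a GC box, and the other motifs were not made exclusive either. Of all 32851 listed promoters, 6.75% held TGANTCA, 1.55% TGACGTCA, 4.70% GCGNGGGCG, 1.47% a CArG box, 32.7% a GC box and 12.4% TATAAA. No member window held TGANTCA or TGACGTCA, which says only that these letters are not in these windows. The RefSeq starts can differ from the deposited ones. For Jund the window (chr8:70697489-70697738) ended well before the deposited gene start at 70698949. The Jun and Junb windows are shown because these close paralogs stood differently in the cells. Capitals mark every motif match, each is written 5′ to 3′ on the gene's strand, and neither overlaps an exon annotated in GENCODE M21. Jun (chr4:95052223-95052472, minus strand) held a GC box on the other strand, and Junb (chr8:84978749-84978998, minus strand) held no match.
Jun: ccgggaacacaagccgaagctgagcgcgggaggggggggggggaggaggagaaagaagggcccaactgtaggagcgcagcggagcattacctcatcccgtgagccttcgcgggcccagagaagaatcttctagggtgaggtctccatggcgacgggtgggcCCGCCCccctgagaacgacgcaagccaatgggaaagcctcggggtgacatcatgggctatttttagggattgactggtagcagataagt
Junb: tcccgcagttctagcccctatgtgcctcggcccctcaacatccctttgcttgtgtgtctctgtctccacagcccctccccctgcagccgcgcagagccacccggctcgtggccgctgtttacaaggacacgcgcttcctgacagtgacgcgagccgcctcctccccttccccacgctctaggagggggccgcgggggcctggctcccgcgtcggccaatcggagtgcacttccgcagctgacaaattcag

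Windows of 30 bases are shown for members whose promoter held an EGR match or a CArG box, again with the match in capitals. They are Fosl2 (chr5:32136383-32136412, plus strand), Fosb (chr7:19310076-19310105, minus strand) and Egr2 (chr10:67537787-67537816, plus strand, before the third of 5 listed starts). The EGR match lay 79 bases before the RefSeq start of Fosl2 and 50 before that of Fosb. The Egr2 CArG box lay 72 bases before its listed start. By deposited coordinates the Fosl2 and Egr2 windows lie inside the genes, which start at 32135801 and 67535475.
Fosl2: ccggctgcgcGCGGGGGCGgaagggcgcgc
Fosb: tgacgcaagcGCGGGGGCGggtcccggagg
Egr2: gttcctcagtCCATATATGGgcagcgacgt

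Depth was even, at 15635448 to 16510048 reads per library, recovered as whole reads from the FPKM steps. Calu itself stood at 178 and 177 FPKM in WT and at 14.9 and 10.9 FPKM in Calu-KO (log2 difference -3.70 ± 0.17, SE, limma adjusted p = 0.00493). The fall accords with Calu as the targeted gene, though 1178 and 744 reads of it remained in Calu-KO. Of 7 fibroblast markers Col1a1, Col1a2, Vim and Pdgfra were expressed in all libraries, whereas Dcn and Lum had no reads and Thy1 2 to 6. All 5 epithelial and all 4 endothelial markers stayed under 1 FPKM in all libraries. Calu-KO replicate 2 stood apart, with 4.0% of reads from mitochondrial genes against 2.43% to 2.53% in the others. It also had the fewest genes with a read, 18739 against 19772 to 20477. The median absolute difference between the 2 Calu-KO libraries was 0.24 on the log2(FPKM + 1) scale over all tested genes, and 0.079 between the 2 WT libraries.

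The members differed widely in level. In WT, mean FPKM ran from Fosl1 (50.9) through Jund (17.5), Fosl2 (13.2), Jun (10.2), Junb (7.66) and Egr1 (4.23) to Fos (0.437), Fosb (0.170), Egr2 (0.125) and Atf3 (0.0140). The ranges of neighbouring genes in this order did not overlap in WT down to Egr1. Fosl1 lay at the 92.1th percentile of the 11885 tested genes and Egr1 at the 29.6th. In Calu-KO the order at the top changed to Jund (28.4), Fosl1 (23.5), Fosl2 (19.9), Jun (10.5), Junb (4.54) and Egr1 (1.13), and there the ranges of Jund and Fosl1 overlapped, as did those of Fosl1 and Fosl2. The classical early genes Fos and Fosb were thus under 1 FPKM in all 4 libraries.

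**Figure D1:**
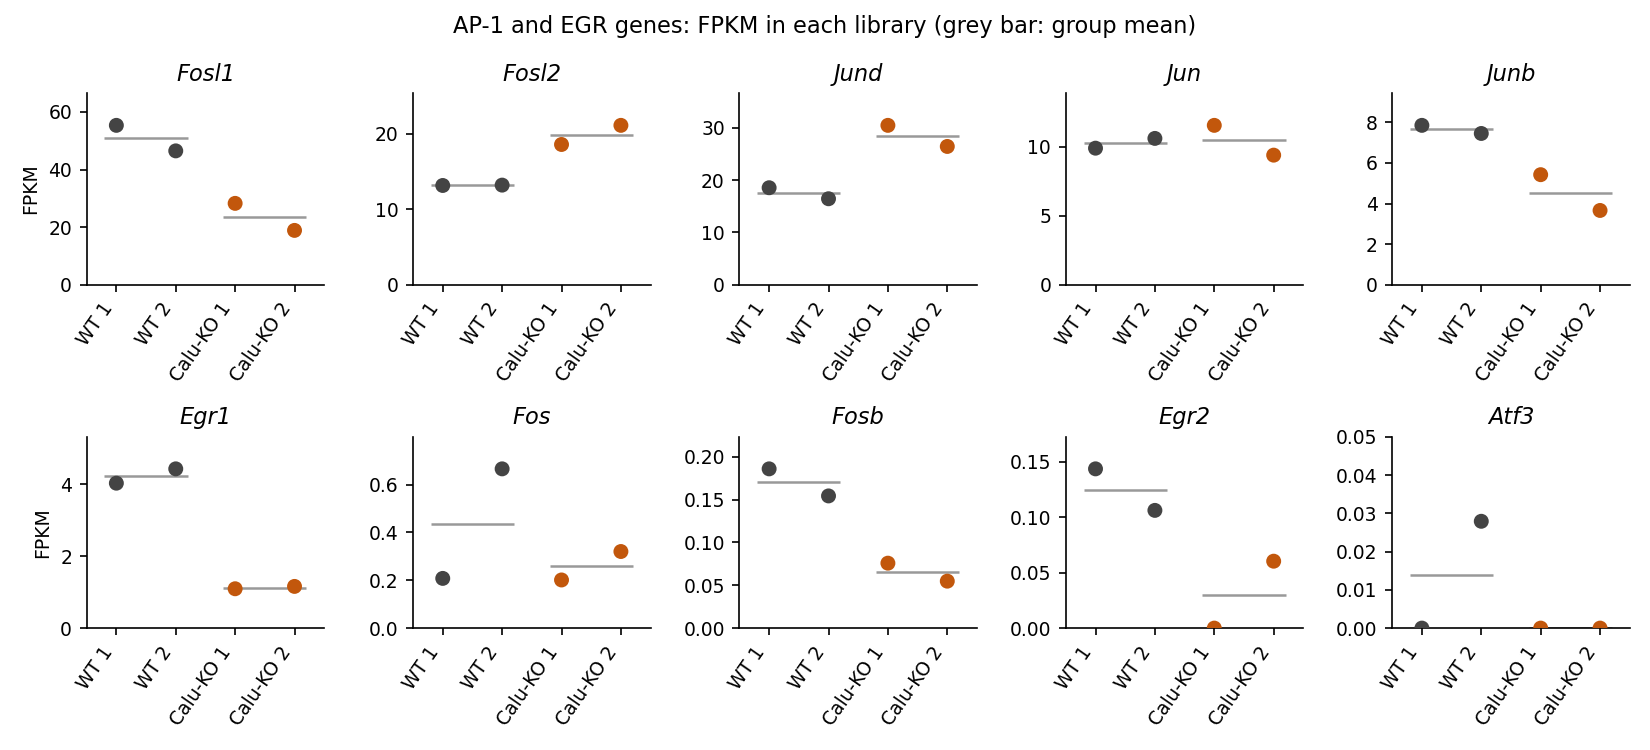
FPKM of each of the 10 genes in the 2 WT (dark) and 2 Calu-KO (orange) libraries, with a grey bar at each group mean and a separate vertical axis per gene, starting at 0. Fosl1, Junb and Egr1 lie lower in both Calu-KO libraries than in both WT libraries, and Fosl2 and Jund higher.

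Of the 10 members, 6 passed the filter of a mean of at least 1 FPKM and were tested. By limma over all 11885 tested genes, 1 of the 6 fell, Egr1, where 1.83% of all tested genes fell. None rose, where 0.942% did. Over all genes 112 rose and 217 fell, and 45 rose and 152 fell with libraries scaled by total reads. At an unadjusted p under 0.05, 3 were lower and 2 higher (12.7% and 12.0% of all tested genes), and limma with voom weights on the recovered reads, added after seeing the data, called 2 lower and 2 higher, where it called 4.11% and 3.10% of all tested genes. Without Calu-KO replicate 1 the fit called 23.6% of all tested genes lower and 24.6% higher, and without Calu-KO replicate 2 it called 9.51% and 7.76%, so a member that passes in those fits is 1 of many. Groups did not overlap for 3 members lower and 2 higher in Calu-KO, where 29.7% and 32.0% of all tested genes did the same. The median log2 difference of all tested genes was 0.0072. With 2 libraries a side, the smallest two-sided p of an exact permutation test is 0.333, so single values and shares were not tested alone.

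Among the EGR factors, Egr1 (ENSMUSG00000038418, chromosome 18, 34859823 to 34864984, mm10, plus strand) drives growth and repair genes after stimulation. It stood at 4.03 and 4.43 FPKM in WT and at 1.09 and 1.16 FPKM in Calu-KO, replicate 1 first in each pair here and below. The WT values rest on 296 and 330 reads, those of Calu-KO on 83 and 76. Both Calu-KO libraries were low to the same degree, at log2 differences from the WT mean of -1.32 and -1.28, and the groups did not overlap. In these bulk samples fewer cells of a type and less RNA per cell cannot be told apart. The fitted log2 difference was -1.30 ± 0.14 (SE; 95% interval -1.66 to -0.93; limma adjusted p = 0.0280). On recovered reads with voom weights, where no pseudocount of 1 damps a gene this low, it was -1.91. Without WT replicate 1 the adjusted p was 0.118, and without WT replicate 2 it was 0.156. The call was also lost with no filter on low values (0.123), where 24462 genes were tested.

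Egr2, the factor known for myelinating Schwann cells and for T cells, was read 8 and 6 times in WT, 0 and 3 times in Calu-KO, or 0.144 and 0.106 against 0 and 0.0604 FPKM. Over both libraries of a group it was 4.46-fold lower in Calu-KO, with an exact binomial interval of 1.24 to 24.2 for the fold that covers counting error only. It was not tested. Of the other EGR factors, Egr3 stood at 1.08 and 1.02 FPKM in WT and 1.10 and 1.16 in Calu-KO (log2 difference 0.055, 95% interval -0.38 to 0.49, adjusted p = 0.853, limma), and Egr4 had no reads. Within a library, Egr1 stood at 3.73 and 4.32 times the FPKM of Egr3 in WT and at 0.995 and 0.996 times in Calu-KO.

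Nab2, a corepressor that EGR factors induce and that binds them in return, fell. It stood at 8.473 and 8.474 FPKM in WT and 3.08 and 1.70 in Calu-KO, with both Calu-KO libraries low and replicate 2 lowest (log2 difference -1.51 ± 0.22, adjusted p = 0.0441, limma). The call was lost without WT replicate 1 (0.123) or WT replicate 2 (0.129) and in 5 other alternatives. Of 3 tested EGR partners Nab2 was the only one called, and the median of the 3 was 0.055 (-0.10 to 0.077 with 1 library left out).

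Of the 4 Fos-type genes 2 were tested and neither passed, with Fosl1 lower and Fosl2 higher in both Calu-KO libraries. Fosl1 (ENSMUSG00000024912, chromosome 19, 5447703 to 5455945, plus strand), which encodes FRA-1, the late-induced member, stood at 55.4 and 46.5 FPKM in WT and at 28.2 and 18.8 FPKM in Calu-KO. Both Calu-KO libraries were below both WT libraries, and Calu-KO replicate 2, the library with more mitochondrial reads, was the lowest. Its mean was 50.9 ± 6.27 FPKM in WT and 23.5 ± 6.64 in Calu-KO (SD, n = 2 each), a 2.16-fold difference. The log2 difference was -1.10 ± 0.22 (95% interval -1.66 to -0.54), and it did not pass over all genes (adjusted p = 0.0757, limma). It passed without Calu-KO replicate 1 (-1.38, adjusted p = 0.00353) and without Calu-KO replicate 2 (-0.82, adjusted p = 0.0263), fits in which the spread rests on the WT pair, and on recovered reads with voom weights (0.0254). Without WT replicate 1 or 2 the adjusted p was 0.369 and 0.204.

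The gene span of Fosl1 shares 2766 bases with that of Ccdc85b on the opposite strand, and whether counting used strand is not stated. Here and below, shared bases are of whole gene spans, introns included, and overlap of exons was not measured. Ccdc85b stood at 33.2 and 29.3 FPKM in WT and at 34.2 and 19.8 in Calu-KO. In Calu-KO replicate 1 Fosl1 was low while Ccdc85b was at its highest, and in Calu-KO replicate 2 both were at their lowest.

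Fosl2 (ENSMUSG00000029135, chromosome 5, 32135801 to 32157842, plus strand), which encodes FRA-2, the other member without a strong activation domain, stood at 13.15 and 13.20 FPKM in WT and at 18.6 and 21.1 FPKM in Calu-KO. Both Calu-KO libraries were above both WT libraries. Its log2 difference was 0.55 ± 0.12 (95% interval 0.25 to 0.85), a 1.51-fold higher mean that did not pass (adjusted p = 0.0824, limma; 0.0422 with voom weights). Without Calu-KO replicate 1 the adjusted p was 0.00429, and without Calu-KO replicate 2 it was 0.0245, against 0.627 and 0.622 without WT replicate 1 and 2. Fosl2 had the most reads of any member, from 2084 to 3042 per library.

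Fos, the founding member and the usual marker of fresh stimulation, was read 8 and 26 times in WT, 8 and 11 times in Calu-KO. The WT libraries differed from each other more than the groups did. Over both libraries it was 1.71-fold lower in Calu-KO, with a counting interval of 0.948 to 3.17. Fosb, a close relative of Fos known from neurons and bone, was read 19 and 16 times in WT, 8 and 5 times in Calu-KO, 2.57-fold lower with a counting interval of 1.33 to 5.30. The Fosb groups did not overlap, but at 0.0548 to 0.186 FPKM it was far under the filter and not tested. Atf3 had 1 read in WT replicate 2 and none elsewhere, so no fold is given, and 3 reads over both libraries of a group would be 0.0422 FPKM in WT and 0.0442 in Calu-KO.

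None of the 3 Jun-type genes passed either, with Jund higher and Junb lower in both Calu-KO libraries and Jun overlapping. Jund (ENSMUSG00000071076, chromosome 8, 70698949 to 70700616, plus strand), the steady member linked to quiescence, stood at 18.5 and 16.4 FPKM in WT and at 30.5 and 26.4 FPKM in Calu-KO, so both Calu-KO libraries were higher. The log2 difference was 0.67 ± 0.13 (95% interval 0.34 to 1.01), a 1.63-fold higher mean, and it did not pass (adjusted p = 0.0743, limma; 0.0416 with voom weights). It passed without Calu-KO replicate 1 (0.0113) and without Calu-KO replicate 2 (0.0199), but not without WT replicate 1 (0.445) or WT replicate 2 (0.592). An antisense gene inside it, Gm11175, had no reads in any library.

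Jun (ENSMUSG00000052684, chromosome 4, 95049034 to 95052222, minus strand), the strongest activator of the Jun-type proteins, stood at 9.88 and 10.6 FPKM in WT and at 11.5 and 9.38 FPKM in Calu-KO. The Calu-KO libraries lay on either side of the WT pair. The log2 difference was 0.022 ± 0.14 (95% interval -0.33 to 0.38, adjusted p = 0.931, limma), so a difference of over 0.38 in either direction lay outside the interval. This is not a detection limit, since Fosl2 at 0.55 and Jund at 0.67 did not pass over all genes either. The antisense gene Junos, which shares 689 bases with Jun, stood at 2.76 and 2.60 FPKM in WT and 2.14 and 2.29 in Calu-KO.

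Junb (ENSMUSG00000052837, chromosome 8, 84974484 to 84978718, minus strand), the member that often opposes Jun, stood at 7.86 and 7.46 FPKM in WT and at 5.42 and 3.66 FPKM in Calu-KO. Both Calu-KO libraries were low, and Calu-KO replicate 2 was again the lowest. The log2 difference was -0.66 ± 0.18 (95% interval -1.14 to -0.19), and it did not pass (adjusted p = 0.128, limma; 0.0857 with voom weights). It passed without Calu-KO replicate 1 (-0.89, adjusted p = 0.00441) and without Calu-KO replicate 2 (-0.43, adjusted p = 0.0450), but not without WT replicate 1 (0.623) or WT replicate 2 (0.567). Its last 351 bases are shared with Prdx2 on the opposite strand, at 31.5 and 32.0 FPKM in WT and 32.8 and 28.9 in Calu-KO.

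**Figure D2:**
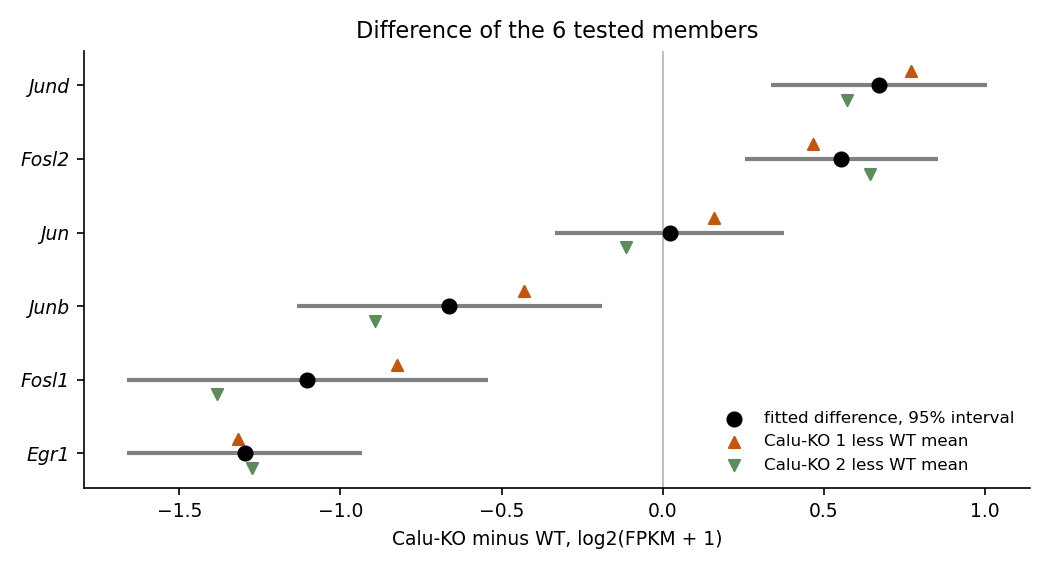
Calu-KO minus WT on the log2(FPKM + 1) scale for the 6 tested members, with the 95% interval of the fit (bar) and each Calu-KO library less the WT mean (triangles). Only the interval of Jun spans 0, the adjusted p of Egr1 alone is under 0.05, and for Fosl1, Fosl2 and Junb replicate 2 lies farther from 0 than replicate 1.

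Shares within a library do not depend on how the libraries were scaled to each other. Of the summed FPKM of the 4 Fos-type genes, Fosl1 held 80.3% and 76.8% in the WT libraries, against 60.0% and 46.7% in the Calu-KO libraries. Fosl2 held 19.1% and 21.8% in WT and 39.5% and 52.4% in Calu-KO. Fos held at most 1.10% and Fosb at most 0.270% in any library. Per length, Fosl1 was thus the main Fos-type transcript in all libraries but Calu-KO replicate 2, where Fosl2 was. By reads, with no account of length, the longer Fosl2 was ahead in every library, with 57.0% and 60.9% in WT and 78.5% and 86.0% in Calu-KO. The ratio of Fosl1 to Fosl2 was 4.21 and 3.52 in WT and 1.52 and 0.892 in Calu-KO. The summed FPKM of the 4 genes was 64.7 ± 5.94 in WT and 43.7 ± 4.78 in Calu-KO (SD, n = 2 each).

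Among the Jun-type genes, Jund held 51.1% and 47.6% of the summed FPKM in WT and 64.2% and 67.0% in Calu-KO. Junb held 21.66% and 21.63% in WT and 11.4% and 9.27% in Calu-KO. Jun held 27.2% and 30.7% in WT and 24.3% and 23.8% in Calu-KO. The ratio of Junb to Jund was 0.424 and 0.454 in WT and 0.178 and 0.138 in Calu-KO, and in each of these shares and ratios the groups did not overlap. The summed FPKM of the 3 genes was 35.4 ± 1.27 in WT and 43.4 ± 5.63 in Calu-KO. Levels per length rest on the deposited gene lengths, among which Fosl2 has 9680 bases and Jund 1668.

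**Figure D3:**
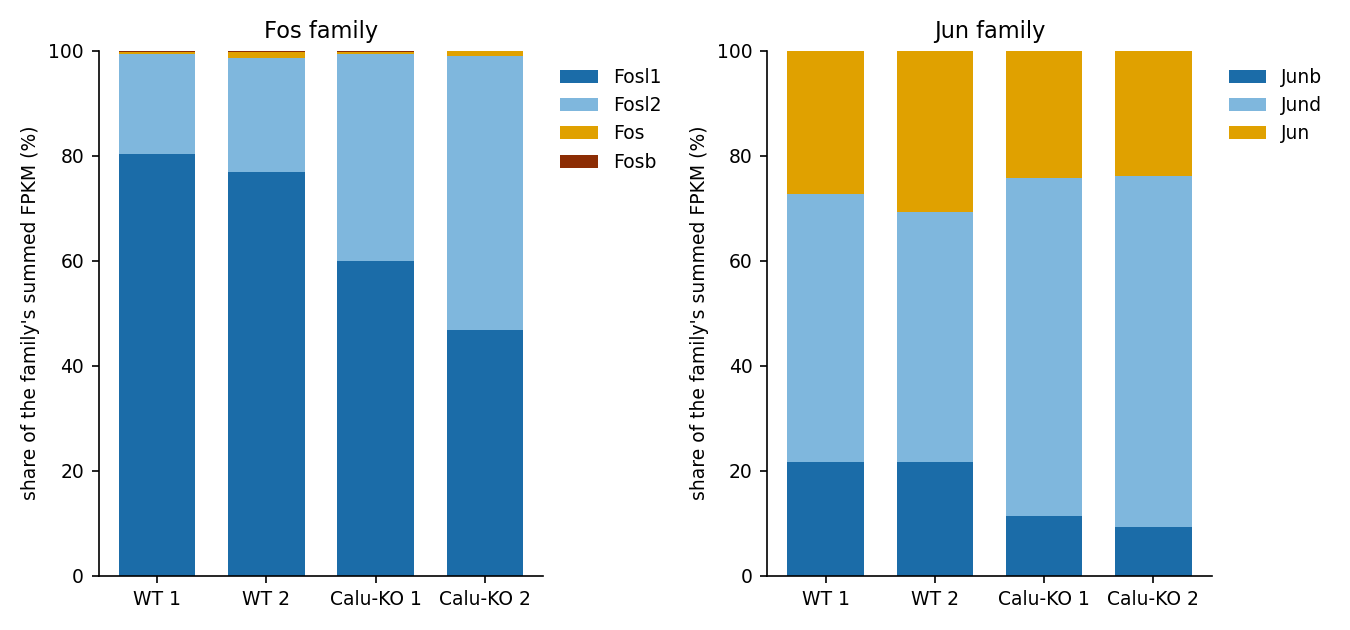
Share (%) of the summed FPKM of the Fos-type genes (left) and Jun-type genes (right) held by each gene, as stacked bars for the 4 libraries. Fosl1 holds 76.8% to 80.3% in WT and 46.7% to 60.0% in Calu-KO, and Jund 47.6% to 51.1% in WT and 64.2% to 67.0% in Calu-KO.

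All 6 tested members are GC-rich, at 53.1% (Fosl2) to 67.1% (Jund) GC in their longest transcript, where the median tested gene has 49.4%. Across all tested genes, which are not independent replicates, the log2 difference went down with GC content (Spearman's rho -0.315). The median was 0.20 in the tenth of genes with the least GC and -0.18 in the tenth with the most. Jund, the richest in GC, thus lay above the level of its neighbours in GC, and Egr1, Fosl1 and Junb below theirs. With trends on GC and gene length removed, the log2 difference of Jund was 1.08 (adjusted p = 0.0154, limma) against 0.67 before, and that of Junb -0.35 (adjusted p = 0.162) against -0.66. Egr1 stayed at -1.18 (adjusted p = 0.0247). Fosl1 came to -0.81 (adjusted p = 0.0490) and Fosl2 to 0.48 (adjusted p = 0.04995), both at the edge of the threshold.

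**Figure D4:**
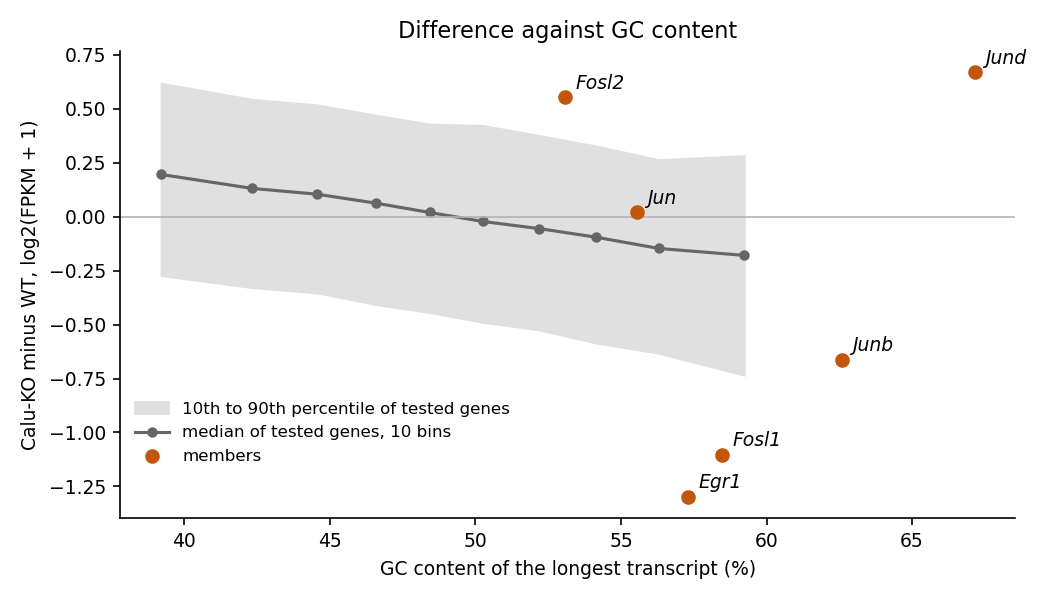
Calu-KO minus WT on the log2(FPKM + 1) scale against GC content of the longest transcript. The line joins medians of tested genes in 10 bins of equal size, from 0.20 to -0.18, the band spans their 10th to 90th percentiles, and the points are the 6 tested members.

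Other genes of the pathway were taken from lists of 80 distinct genes, of which 65 were tested. Of these 4 fell, Nab2, Maff and Tgfb1 among them, and none rose (limma; 20 were lower and 2 higher at an unadjusted p under 0.05), against 1.83% and 0.942% of all tested genes. Their median log2 difference was -0.16. Some of these genes, Tgfb1 among them, were known from earlier results to differ, so the counts describe the lists and support nothing further.

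Among 8 tested bZIP partners of AP-1, 1 fell and the median was -0.12 (-0.19 to -0.028 with 1 library left out). It was Maff, a small Maf protein that lacks an activation domain and is itself induced early, at 6.07 and 5.64 FPKM in WT and 2.69 and 2.35 in Calu-KO. Both Calu-KO libraries were low, and the log2 difference was -0.96 ± 0.13 (adjusted p = 0.0409, limma). The call was lost without WT replicate 1 (0.337) or WT replicate 2 (0.258) and with scaling by total reads (0.0571). The window before the second of its 3 listed starts (chr15:79347270-79347519, plus strand) is shown because it held both a CRE and an EGR match. The CRE lay 29 bases before that start and next to a GC box. The EGR match lay 88 bases before that start and overlaps another GC box. By deposited coordinates the window lies inside the gene, which starts at 79346621.
Maff: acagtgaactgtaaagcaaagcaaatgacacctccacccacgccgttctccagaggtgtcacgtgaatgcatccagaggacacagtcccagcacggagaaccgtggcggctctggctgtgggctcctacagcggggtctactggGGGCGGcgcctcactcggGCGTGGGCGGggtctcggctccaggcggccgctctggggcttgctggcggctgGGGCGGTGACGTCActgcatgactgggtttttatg

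Kinases that signal to the early genes, and SRF with its ternary complex partners, made up a further list. Of 19 tested, none passed in limma or with voom weights (2 lower and 0 higher at an unadjusted p under 0.05), and the median log2 difference was 0.082. That median was -0.0087 with GC and length trends removed and 0.013 without Calu-KO replicate 2, so it has no firm sign. The highest was 0.38, for the kinase Map2k4. Srf stood at 23.2 and 23.9 FPKM in WT and 25.4 and 28.7 in Calu-KO (log2 difference 0.19, 95% interval -0.11 to 0.49, adjusted p = 0.3496, limma), and its log2 difference was 0.48 with the trends removed (adjusted p = 0.104, limma).

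Of 16 other tested immediate-early genes, none passed in limma (6 lower and 2 higher at an unadjusted p under 0.05; 2 lower with voom weights), and the median was 0.018 (-0.14 to 0.070 with 1 library left out). They spread widely, from -1.24 for Klf4 to 0.72 for Cyr61. Ier2, a short early gene, stood at 17.1 and 15.0 FPKM in WT and 9.25 and 10.9 in Calu-KO (log2 difference -0.62, adjusted p = 0.0888, limma). With GC and length trends removed its log2 difference was -0.28 (adjusted p = 0.375, limma). Myc, the growth regulator, stood at 41.9 and 42.1 against 32.0 and 23.0 FPKM (adjusted p = 0.135). Dusp1, the phosphatase that switches off MAP kinases, stood at 3.85 and 3.08 FPKM in WT and 7.13 and 4.999 in Calu-KO (adjusted p = 0.142). Tested early genes lay on both sides of 0 in the same libraries. The 4 under the filter were lower in Calu-KO and were not tested. Ptgs2 was read 46 and 47 times in WT and 6 and 8 in Calu-KO, and Nr4a1 22 and 41 against 17 and 3. Nr4a3 was read 19 and 18 times against 12 and 13, and Klf2 9 and 5 against 0 and 0.

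Of 10 tested AP-1 target genes 1 fell, all 10 had a negative log2 difference, as did 49.3% of all tested genes, and the median was -0.28. The median was -0.53 without Calu-KO replicate 1, -0.34 without Calu-KO replicate 2, and -0.245 without WT replicate 2. Plaur, the urokinase receptor, stood at 14.8 and 14.6 FPKM in WT and 10.5 and 4.63 in Calu-KO (adjusted p = 0.176, limma). Its promoter held TGACTCA, 69 bases before the start, and it was chosen for display for that match, after its values were seen. Mmp3, Mmp9 and Mmp13, classical AP-1 targets in stimulated fibroblasts, had at most 1, 3 and 2 reads in any library, highest levels of 0.0334, 0.0518 and 0.0450 FPKM, and Mmp10 had no reads.
Plaur: acccctggagcTGACTCActctttagcaaa

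Of 10 tested EGR1 target genes 2 fell, Nab2 and Tgfb1, 9 had a negative log2 difference (49.3% of all tested genes), and the median was -0.76. Without Calu-KO replicate 2, the library that stood apart, the median was -0.42, and without Calu-KO replicate 1 it was -0.94. Tgfb1, the ligand that drives fibrosis, stood at 9.59 and 9.15 FPKM in WT and 4.55 and 4.25 in Calu-KO (log2 difference -0.94 ± 0.11, adjusted p = 0.0331, limma; 0.313 without WT replicate 1 and 0.264 without WT replicate 2). Both Calu-KO libraries were low by a like amount. F3, tissue factor, stood at 8.89 and 7.91 FPKM in WT and 4.61 and 4.04 in Calu-KO (adjusted p = 0.0508). The Tgfb1 promoter held an EGR match on the other strand, 122 bases before the start (chr7:25686870-25686899, plus strand), and that of Plaur an EGR match as well.
Tgfb1: ccttggagccCGCCCACGCtaagatgaaga

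**Figure D5:**
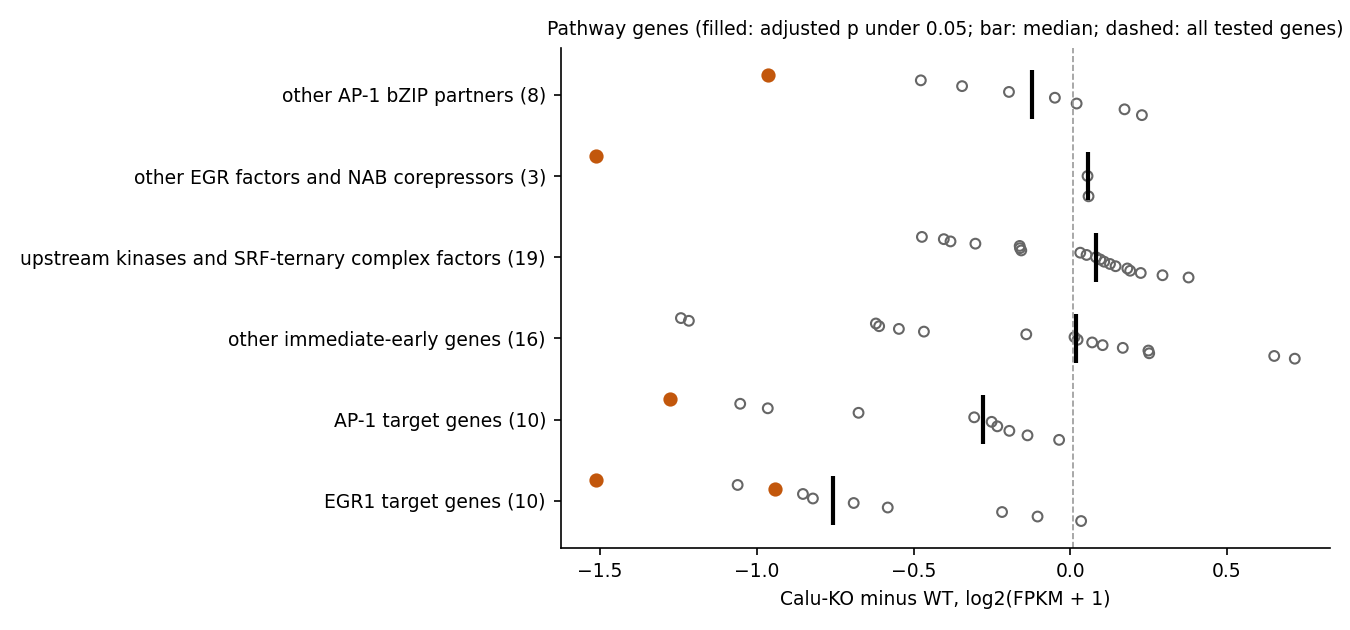
Calu-KO minus WT on the log2(FPKM + 1) scale for the tested genes of 6 pathway lists, with the number tested in brackets, filled points for adjusted p under 0.05, a bar at each median and a dashed line at the median of all tested genes. The medians run from -0.76 (EGR1 target genes) to 0.082 (upstream kinases and SRF partners).

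By distance between log2(FPKM + 1) profiles over the 4 libraries, the protein-coding genes nearest to Egr1 among 10196 were Dbt, an enzyme subunit of branched-chain amino acid breakdown, Panx1, a membrane channel, Tspan32, Als2cl and Itga6, an integrin chain. Dbt, at a distance of 0.0536, stood at 4.29 and 4.60 FPKM in WT and 1.18 and 1.33 in Calu-KO. The other 4 lay at 0.122 to 0.128, and 30 genes lay within 0.3. With 4 libraries such a likeness says little more than a similar size of difference on this scale and a similar spread. As ratios of mean FPKM the 5 genes were 2.78-fold (Itga6) to 5.79-fold (Panx1) lower, and Egr1 3.75-fold. Panx1, Tspan32 and Als2cl averaged under 1 FPKM in Calu-KO, where this scale damps differences.

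Markers of other cell types also differed between the groups. Of 5 macrophage and leukocyte markers 2 were tested and 1 fell, Lyz2, and the summed FPKM of the list was 11.1 and 12.2 in WT and 4.17 and 4.12 in Calu-KO. Cd68 stood at 4.32 and 4.79 FPKM in WT and 2.40 and 2.78 in Calu-KO (adjusted p = 0.0888, limma), and Csf1r had 12 and 17 reads against 5 and 7. Adgre1 had no reads in any library, and Ptprc had 1 read in each WT library and 0 in Calu-KO. Of 6 smooth muscle and pericyte markers Mcam rose and Des fell, and their summed FPKM was 16.5 and 18.4 in WT and 25.2 and 20.8 in Calu-KO, with Acta2 at no more than 3 reads. The 4 mesothelial markers summed to 33.1 and 30.4 FPKM in WT and to 25.3 and 22.5 in Calu-KO, nearly all from Msln. The part of these 3 lists in the differences of the AP-1 and EGR genes was not tested.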

How the data were processed

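RNA of mouse cells was sequenced as 2 WT and 2 Calu-KO libraries. Descriptions of the samples gave groups and replicate numbers. The labels name HISAT2 2.0.5 as the aligner of paired-end reads, and per the submitters' processing notes the build was mm10. No source used here names the read counter, the annotation or the use of strand. The authors deposited FPKM for 54532 genes, and 54495 of the identifiers were found in GENCODE M21.

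Multiplied by gene length, 100% of the FPKM values came within 0.001 of a whole number of reads, and these reads were used as recovered. At this depth 3 reads in a gene of 1 kb were worth 0.177 to 0.205 FPKM. The 11885 genes averaging 1 FPKM or more were tested on log2(FPKM + 1), a scale that understates changes of low genes, with limma 3.58.1 in R 4.3.3 (intensity trend, two-sided, Benjamini-Hochberg, threshold 0.05). Fold differences are ratios of mean FPKM. GC content is of the longest M21 transcript.

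The members and lists were chosen with earlier results of these data known. The text names all members, Calu, up to 3 called genes per direction and list, Dusp1, Ier2, Myc, Srf, Nab2 and Maff, and the 5 genes nearest to Egr1. Map2k4, Klf4, Cyr61, Ptgs2, Nr4a1, Nr4a3, Klf2, Plaur, F3, the Mmp genes, Egr3 and the marker genes were added after their values were seen. Some list genes are counted but not reported by name here. The test was checked on 5 simulated sets of WT and Calu-KO libraries, each with 200 altered genes among 11885. It found 71.6% of altered genes at a log2 change of 1, and 97.2% at a log2 change of 2. The simulated sets gave every gene the same dispersion and both groups the same spread. The real Calu-KO pair spread more widely than the WT pair (median absolute difference 0.24 against 0.079). These shares may therefore be too high for the real libraries.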

Additional observations from a re-analysis of the deposited data

How the results depend on the processing

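The counts, members, list medians and genes named by the rule were recomputed under 15 alternatives, and the family shares under 1. Egr3, Map2k4, Klf4, Cyr61, Ptgs2, Nr4a1, Nr4a3, Klf2, Plaur, Cd68 and F3 were not recomputed. Egr1 stayed lower in all 15 and passed in 12, with log2 differences of -1.91 to -1.18 and adjusted p-values of 0.00434 to 0.156. Fosl1, Fosl2, Junb and Jund kept their sign in all 15. Jun, called in none of the 15, was at -0.076 when rescaled by total reads, a shift that all genes shared, and ran from -0.11 to 0.16 with 1 library left out. With all libraries 112 genes were higher and 217 lower, 1 member was lower and 0 higher, and of the list genes 4 were lower and 0 higher. With 1 library left out these ran from 8 to 2926 higher and 34 to 2805 lower over all genes, 0 to 3 lower and 0 to 2 higher among the members, and 0 to 27 lower and 0 to 7 higher among the list genes. The high counts came without a Calu-KO library, where the spread rests on the WT pair.

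With no filter on low values 0 genes passed in limma (3886 at an unadjusted p under 0.05), so 0 members and 0 list genes did, and Calu kept its log2 difference of -3.70 without passing. A filter at 0.1 FPKM left 29 higher and 99 lower and 0 list genes. Rescaling by total reads moved the median of all genes to -0.088, with 45 higher, 152 lower and 1 list gene lower. With GC and length trends removed 267 were higher and 338 lower, 2 members were higher and 2 lower, and 1 list gene was higher and 7 lower. With voom weights, chosen after seeing the data, 368 were higher and 489 lower, 2 members each way, and 9 list genes lower. The cause of these shifts was not tested.

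Same-numbered libraries share only a number (correlation of their deviations from the group means 0.0153). With the replicate block 181 genes were higher and 312 lower, 2 members were lower (Egr1 and Fosl1, the latter at an adjusted p of 0.0209 in limma) and 8 list genes lower. With the replicate block and GC and length trends removed 394 were higher and 470 lower, 1 member was higher and 2 lower, and 2 list genes were higher and 11 lower. Counted in reads rather than FPKM, which mixes in gene length, Fosl1 held 40.1% of its family in WT and 17.3% in Calu-KO, and Jund 36.7% and 52.1%. The planned edgeR and DESeq2 tests were not run, because the deposited values are FPKM. Depth limits Fos, Fosb, Egr2 and Atf3, at 26 reads or fewer per library.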
